A study of Bos taurus with 48 samples.

Results

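A set of 99 genes, of 24616 listed, was over an FPKM of 0.5 in every library of a bovine cumulus-oocyte complex (COC) data set. FPKM scale fragments to the length of the gene and to the library total, so levels can be set side by side between genes. The data comprised 48 polyA+ RNA libraries from 16 COCs of Bos taurus, each giving 1 oocyte, 1 sample of the cumulus cells nearest to the oocyte (innerCCs) and 1 sample of the outer cumulus layer (outerCCs), with 16 libraries of each sample type. No treatment was applied, and the COCs were aspirated from the ovarian follicles of slaughtered cows and chosen by morphology. Animals and ages are not given in the sources used here, so the spread between COCs may hold more than 1 COC of an animal. Cumulus cells were taken off with trypsin and their RNA was extracted with TRIzol, whereas oocytes were lysed directly, and sample type and extraction cannot be told apart.

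The members had to exceed the threshold in all 48 libraries and to have a standard deviation (SD) of log2(FPKM + 1) under 1.2 across the 16 oocytes. The first condition left 106 genes and the second removed 7 of them, including ALDOA, a glycolytic enzyme. A further 4 genes were named for exclusion, of which 0 had met the conditions. The presence of the 99 members in every library and their oocyte SD are therefore how the genes were chosen and not results. Genes found in all cells are often those of general upkeep: ribosomes and translation factors make protein, chaperones fold it, and actin and tubulin build the cytoskeleton. A growing oocyte stores transcripts for use after transcription has stopped, whereas cumulus cells go on transcribing and are coupled to the oocyte through projections and gap junctions. Genes of this kind are often taken as references between samples on the premise that their level does not move.

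A symbol was at hand for 18 members (18.2%), against 33.7% of the 12428 genes tested. Symbols came from lists of putative ligands and receptors and of genes specific to a sample type, so the named members are not a random draw. The other 81 are given by identifier. Those named here were the ribosomal proteins RPS27A and RPLP1, the translation factors EIF4A1, EEF1G and EEF1B, the chaperones HSPA8, HSP90AA1, HSP90AB1, HSP90B1, HSPD1 and CALR, and RPN2 of the oligosaccharyltransferase. The others were ACTB and TUBA1B of the cytoskeleton, the calcium sensor CALM, the RNA-binding protein HNRNPA1 and the ATP synthase subunit ATP5A1. Several of these have near-identical copies or processed pseudogenes in mammals, and only uniquely matched reads were kept, so their levels are less certain.

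The innerCC libraries decided which genes were members. Genes over 0.5 numbered 8525 to 11340 in an oocyte library and 9054 to 11851 in an outerCC library. In innerCCs of COCs 185 to 192 they numbered 5876 to 10295, but only 648 to 2639 in those of COCs 176 to 184. These sets of COCs were read from the data, with 8 innerCC libraries in each. The lowest of a member's 48 values lay in an innerCC library of COCs 176 to 184 for 88 members and in an oocyte library for 11. Of the 116 genes over the threshold in 47 libraries, 50 missed it only in the innerCCs of COC 179 and 25 only in those of COC 181. At the edge of the threshold, ENSBTAG00000031723, ENSBTAG00000030169 and ENSBTAG00000002038 had lowest FPKM of 0.503, 0.524 and 0.544, and ENSBTAG00000020376, ENSBTAG00000006045 and ENSBTAG00000016174 were left out with 0.485, 0.484 and 0.480, each in 1 innerCC library of COCs 177 to 180. At the edge of the SD, ENSBTAG00000007662, ENSBTAG00000043577 and ENSBTAG00000043563 were kept with 1.18, 1.16 and 1.13, and ENSBTAG00000043559, ENSBTAG00000001601 and ENSBTAG00000013411 were left out with 1.24, 1.25 and 1.25. A bulk sample cannot tell fewer cells from less RNA per cell.

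The members were abundant in most libraries. The rule favoured genes abundant in cumulus cells, so their level and rank are in part built into the choice and are given as a description only. Their median FPKM over the 48 libraries ran from 35.6 for RPN2 to 8996 for ENSBTAG00000043570, and 93 members had a median over 100, although 19 fell under 1 in at least 1 library. With the highest gene of a library at rank 1, the median member ranked 254 to 478 in the oocyte libraries, 87 to 101 in the outerCC libraries and 86 to 210 in the innerCC libraries. Between 51 and 77 members were among the 500 highest genes of an oocyte library, against 91 to 93 in an outerCC library. The ranges of oocytes and outerCCs did not overlap. The heatmap of all members shows these differences between genes and sample types.

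**Figure D1:**
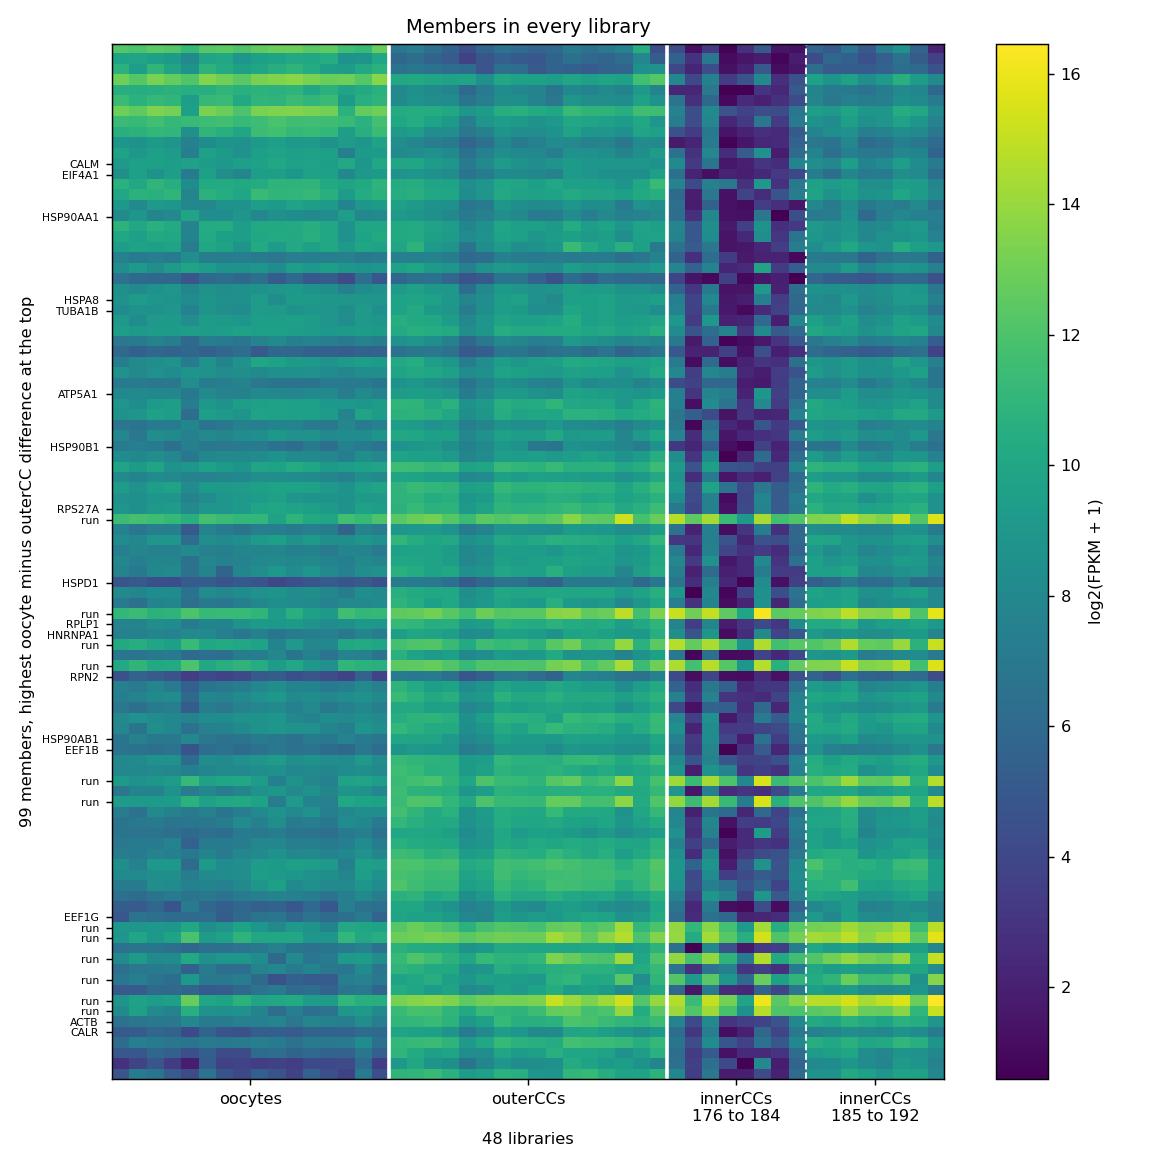
Level of each of the 99 members (horizontal bands, log2(FPKM + 1), colour) in each of the 48 libraries (columns, COCs in number order within each sample type), ordered by the oocyte minus outerCC difference. Symbols are given for the members named in the text, "run" marks the 12 members with neighbouring identifiers, and dark columns mark the innerCC libraries of COCs 176 to 184.

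The share of a library's summed FPKM held by the members differed by sample type, which for the same reason is a description only. It was 10.4% at the lowest, 12.4% at the median and 16.2% at the highest in oocytes. In outerCCs it was 22.7%, 30.4% and 49.4%, and in innerCCs 29.5%, 56.1% and 82.0%. The oocytes lay below all outerCC and innerCC libraries without overlap. Much of this came from 12 members whose Ensembl identifiers fall in a run from ENSBTAG00000043546 to ENSBTAG00000043584, picked out after their values were seen. They held 0.688% to 8.52% of the sum in oocytes (median 1.87%), 6.20% to 41.1% in outerCCs (median 12.9%) and 11.9% to 80.0% in innerCCs (median 50.4%). The other 87 members held 7.65% to 11.96% in oocytes (median 9.69%) and 8.35% to 18.9% in outerCCs (median 16.9%), and these ranges overlapped. In innerCCs the 87 held 1.45% to 7.34% in COCs 176 to 184 and 3.06% to 17.6% in COCs 185 to 192.

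**Figure D2:**
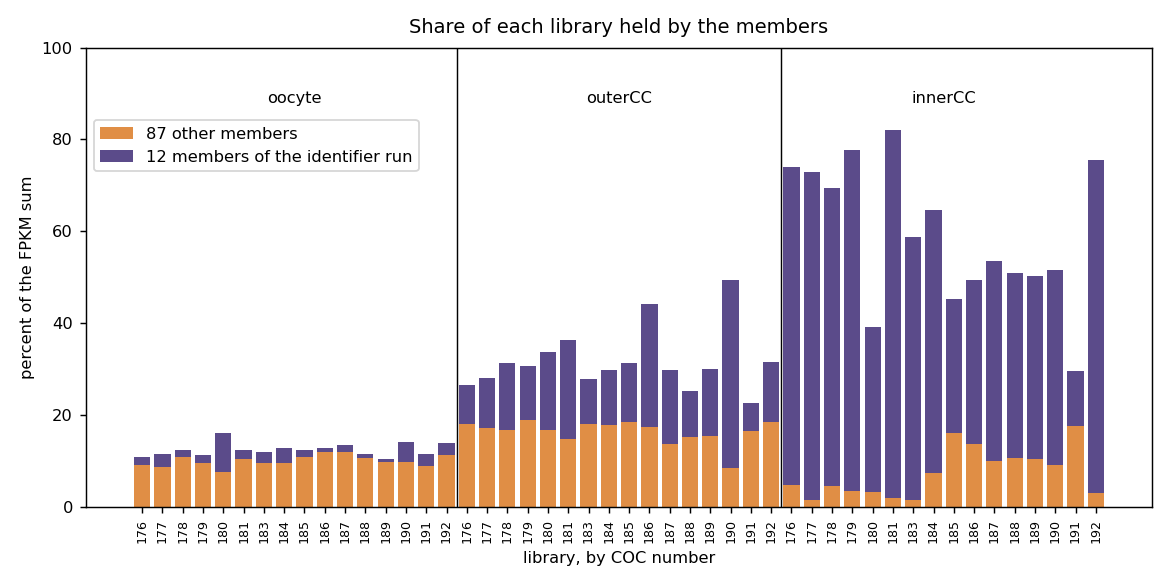
Percent of the summed FPKM of each library held by the members (bars from 0, stacked), with libraries by COC number within sample type. The 12 members with neighbouring identifiers reach 80.0% of an innerCC library and at most 8.52% of an oocyte library.

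The run of identifiers set a level of its own. The table holds 38 identifiers of the run, of which 15 were over 0.5 in all 48 libraries, 3 were removed by the SD and 12 were members. These 12 included 11 of the 12 highest members. No name was at hand for any of them. ENSBTAG00000043570, the highest, had a lowest FPKM of 444, a median of 931 and a highest of 7054 in oocytes. The outerCC values were 4773, 10609 and 40454, and the innerCC values 942, 26628 and 90151. The oocyte and outerCC ranges overlapped, but only 1 of 16 COCs had more in its oocyte. All 12 had their highest median in innerCCs and their lowest in oocytes, an order that 0 of the other 87 members showed. Among those 87, outerCCs had the highest median in 64 and oocytes in 23.

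Oocytes and outerCCs, the types with full libraries, were compared with limma on log2(FPKM + 1) across all genes detected, at a Benjamini-Hochberg FDR of 0.01. The members were mostly lower in oocytes: 72 were lower, 12 were higher and 15 did not pass. Among all 12428 genes tested, 34.3% were lower and 43.4% higher. Because the innerCC libraries mostly decided which genes were members, the rule favoured genes abundant in cumulus cells, so the excess over 34.3% is in part built into the choice and is given as a description only. The median log2 difference of the members was -1.69, against 0.25 over all genes. The direction held in both sets of COCs, with 69 lower and 11 higher in COCs 185 to 192 (27.8% and 38.3% of all genes), and 66 lower and 11 higher in COCs 176 to 184 (29.1% and 36.1%). Libraries scaled to an equal FPKM sum moved the median of all genes to 0.04 and gave 76 lower and 11 higher (39.0% and 40.4%). Scaling to an equal 75th percentile moved it to -0.31 and gave 79 and 10 (45.4% and 34.2%).

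The lower group held the 12 members of the run, with log2 differences from -3.51 to -1.53, and 60 others. Values did not overlap between the sample types for 26 members lower in oocytes (8.84% of all genes) and 5 higher (13.6%). Of the 72, 48 were lower in the oocyte of 16 of 16 COCs, and of the 12 that were higher, 10 were higher in all 16. In size, 68 of the 72 and 11 of the 12 exceeded 1 on the log2 scale. The counts per COC and by size were not made over all genes. They are given as a description only, and nothing particular to the members is read from them.

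**Figure D3:**
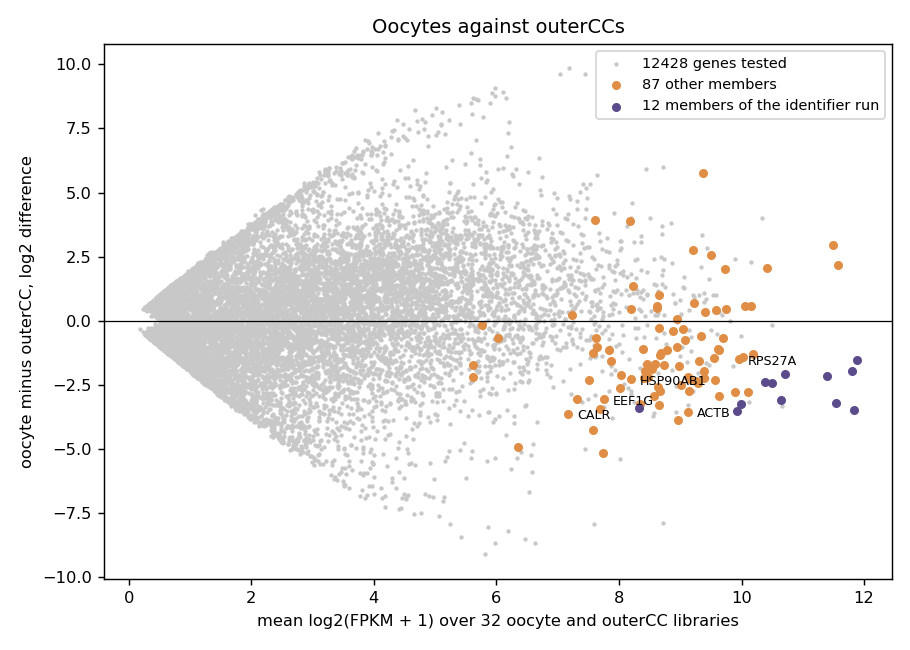
Oocyte minus outerCC difference of log2(FPKM + 1) against the mean of log2(FPKM + 1) over the 32 libraries, for the 12428 genes tested (grey) and the members (orange, and purple for the 12 with neighbouring identifiers). Most members lie at the high end of the level and below 0, with a member median of -1.69.

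The ribosomal proteins RPS27A and RPLP1 and the elongation factors were lower in oocytes. RPS27A, a ribosomal protein made as a fusion with ubiquitin, had a lowest, median and highest FPKM of 260, 594 and 1018 in oocytes and of 569, 1839 and 2777 in outerCCs. The ranges overlapped, and the log2 difference was -1.51 ± 0.20 (SE, n = 16 per type, adjusted p = 1.5e-08), with the oocyte lower in 16 of 16 COCs. RPLP1, an acidic protein of the ribosomal stalk, had oocyte values of 146, 357 and 605 and outerCC values of 570, 1347 and 2305, a difference of -1.95 ± 0.21. It was lower in 16 of 16 oocytes, with ranges that overlapped.

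EEF1G, a subunit of the complex that recharges the elongation factor carrying tRNA, had FPKM of 29.3, 74.9 and 141 in oocytes and 230, 685 and 1254 in outerCCs. Its ranges did not overlap and the log2 difference was -3.06 ± 0.22 (adjusted p = 2.9e-15). EEF1B, named for another subunit of that complex, had 25.0, 90.8 and 120 against 152, 456 and 763, again with no overlap (-2.29 ± 0.20). The initiation helicase EIF4A1, which unwinds the start of the mRNA, had 136, 564 and 815 in oocytes and 103, 366 and 738 in outerCCs. It did not pass the test (0.59 ± 0.26, adjusted p = 0.033), but did so at 0.82 ± 0.21 (adjusted p = 0.00051) with the library's gene number as a covariate, and its difference was -0.22 with libraries scaled to the 75th percentile. The FPKM ratio of EIF4A1 to EEF1G within a library does not depend on the scaling. It ran from 1.95 to 11.5 in oocytes (median 8.08) and from 0.360 to 0.873 in outerCCs (median 0.482), with no overlap. This pair and the pairs below were chosen after their values were seen, and their ratios were not tested.

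The chaperones differed among themselves. CALR, which folds glycoproteins and binds calcium in the endoplasmic reticulum, had FPKM of 16.8, 43.8 and 68.5 in oocytes and 148, 510 and 951 in outerCCs. There was no overlap, and its log2 difference of -3.63 ± 0.23 (adjusted p = 1.9e-16) was the largest among the 18 members with a symbol. HSP90B1, the HSP90 of the endoplasmic reticulum, had 77.2, 133 and 192 against 101, 342 and 550 (-1.26 ± 0.21). RPN2, of the complex that attaches sugars to new proteins in that compartment, had 9.98, 21.4 and 49.2 against 27.8, 113 and 235 (-2.17 ± 0.25). HSPD1, which folds proteins inside mitochondria, had 15.2, 26.2 and 36.5 against 32.2, 104 and 155 (-1.74 ± 0.19). The last 3 were lower in oocytes with ranges that overlapped, in 15 of 16 COCs for HSP90B1 and HSPD1 and in 16 of 16 for RPN2.

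Among the chaperones of the cytosol, HSPA8, the constitutive HSP70, had FPKM of 318, 488 and 639 in oocytes and 228, 718 and 913 in outerCCs. It did not pass the test (-0.32 ± 0.18, adjusted p = 0.10), but did so at -0.64 ± 0.15 with libraries scaled to an equal sum and at -1.13 ± 0.13 scaled to the 75th percentile. The cytosolic HSP90 genes took opposite places. HSP90AB1, the constitutive form, had 95.2, 125 and 242 in oocytes and 256, 671 and 976 in outerCCs, with no overlap (-2.28 ± 0.17, adjusted p = 1.4e-14). HSP90AA1, the inducible form, had 229, 306 and 918 against 140, 260 and 565 and did not pass (0.48 ± 0.21, adjusted p = 0.036), with -0.33 after scaling to the 75th percentile. HSP90AA1 therefore exceeded HSP90AB1 in 16 of 16 oocyte libraries, at ratios of 1.68 to 4.40 (median 2.64), and in 0 of 16 outerCC libraries, at ratios of 0.216 to 0.587 (median 0.400). In innerCCs of COCs 185 to 192 the ratio was 0.220 to 0.499, within the outerCC range. In those of COCs 176 to 184 it was 0.0527 to 1.31, with 1 of 8 libraries above 1. The ratio of HSPA8 to CALR likewise separated oocytes, at 7.29 to 19.0, from outerCCs, at 0.782 to 1.72.

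Actin and tubulin, both in use as reference genes, gave different contrasts. ACTB, cytoplasmic beta-actin, had FPKM of 90.4, 165 and 351 in oocytes and 520, 2087 and 4053 in outerCCs. No oocyte reached the lowest outerCC value, and the log2 difference was -3.56 ± 0.22 (adjusted p = 6.7e-17). TUBA1B, an alpha-tubulin, had 198, 417 and 626 in oocytes and 152, 586 and 1137 in outerCCs. The types overlapped widely and TUBA1B did not pass (-0.39 ± 0.21, adjusted p = 0.092), but did so with libraries scaled to an equal sum, at -0.70 ± 0.16, or to the 75th percentile, at -1.19 ± 0.16. The ratio of ACTB to TUBA1B was 0.264 to 1.28 in oocytes (median 0.375), where 1 of 16 libraries was above 1. It was 1.95 to 8.35 in outerCCs (median 3.54) and 3.11 to 6.04 in innerCCs of COCs 185 to 192 (median 4.20), and 0 of 16 COCs had the higher ratio in the oocyte.

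Of the remaining named members, HNRNPA1, a splicing regulator, had FPKM of 106, 179 and 282 in oocytes and 297, 749 and 1446 in outerCCs, with no overlap (-1.97 ± 0.19). ATP5A1, of the catalytic part of the mitochondrial ATP synthase, had 127, 254 and 287 against 130, 558 and 856 and was lower in 15 of 16 oocytes (-1.11 ± 0.19). CALM, which relays calcium signals, was the only named member that was higher in oocytes, at 481, 767 and 1131 against 138, 472 and 955. The ranges overlapped, 12 of 16 COCs had more in the oocyte, and the difference of 0.68 ± 0.19 (adjusted p = 0.0017) was -0.13 with libraries scaled to the 75th percentile. It did not pass in limma with libraries scaled to an equal sum (0.37 ± 0.16, adjusted p = 0.034) or in COCs 176 to 184 (0.51 ± 0.33, adjusted p = 0.16).

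**Figure D4:**
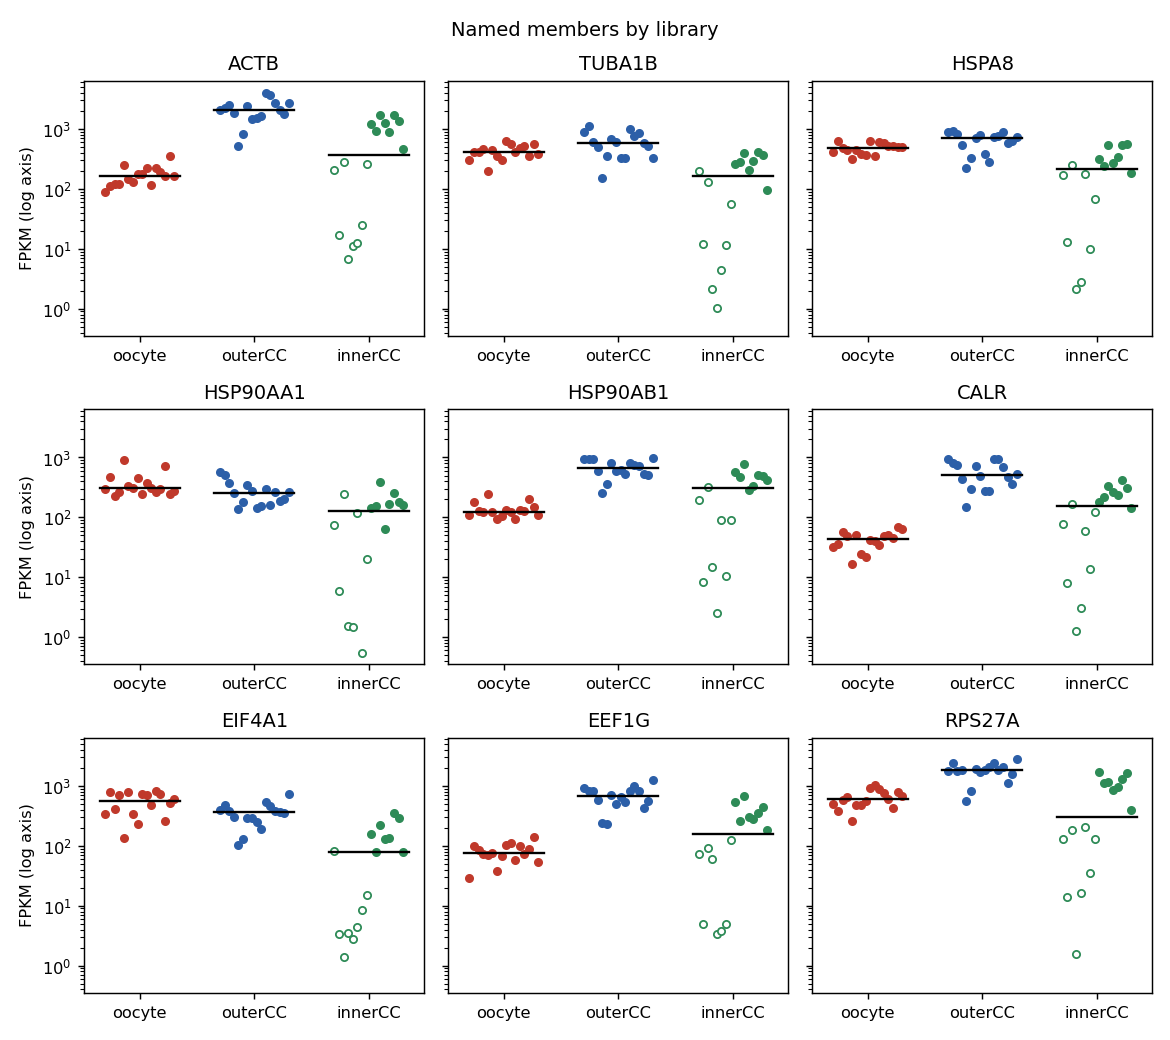
FPKM (log axis) of 9 named members in each library, by sample type, with COCs in number order from left to right and the median as a black bar. Open green circles are innerCC libraries of COCs 176 to 184; ACTB, CALR, EEF1G and HSP90AB1 do not overlap between oocytes and outerCCs, whereas TUBA1B, HSPA8, HSP90AA1, EIF4A1 and RPS27A do.

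The members furthest to the oocyte side had no symbol at hand. ENSBTAG00000012184 had FPKM of 2405, 5305 and 7730 in oocytes and 20.1, 86.6 and 1422 in outerCCs, with no overlap. It stood at a median rank of 5 in oocytes and 804.5 in outerCCs, and its log2 difference was 5.77 ± 0.35 (adjusted p = 3.5e-17). ENSBTAG00000004371 had 277, 897 and 1370 against 11.6, 50.0 and 242 (3.92 ± 0.27). ENSBTAG00000005414 had 420, 1184 and 1997 against 26.0, 74.8 and 395 (3.88 ± 0.30). ENSBTAG00000030169 had 941, 1594 and 1986 against 65.2, 243 and 576 (2.78 ± 0.20), and none of these overlapped. ENSBTAG00000038488 (2.96 ± 0.24) and ENSBTAG00000025191 (2.57 ± 0.24) were also higher in 16 of 16 COCs, with ranges that overlapped. ENSBTAG00000017246, the only member outside the run among the 12 highest, had a median of 8404 in oocytes, 1389 in outerCCs and 308 in innerCCs (oocyte minus outerCC 2.18 ± 0.30).

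At the other end, ENSBTAG00000007662 had FPKM of 11.7, 25.8 and 148 in oocytes and 450, 1545 and 2577 in outerCCs (-5.14 ± 0.34, adjusted p = 3.0e-16). ENSBTAG00000000894 had 2.60, 12.5 and 69.8 against 108, 431 and 1312 (-4.90 ± 0.31). ENSBTAG00000006487 (-4.26 ± 0.25) and ENSBTAG00000006189 (-3.85 ± 0.20) followed. In each of these 4 all oocytes lay below all outerCCs. Median ranks of ENSBTAG00000000894 were 4170.5 in oocytes and 175.5 in outerCCs, so a gene present in every library was near the top in cumulus cells and far down in oocytes.

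The 15 members that did not pass spanned log2 differences from -0.76 to 0.59, with standard errors of 0.16 to 0.34. Besides EIF4A1, HSP90AA1, HSPA8 and TUBA1B they had no symbol. ENSBTAG00000018103 had medians of 499 FPKM in oocytes and 489 in outerCCs (0.06 ± 0.19, adjusted p = 0.76). ENSBTAG00000020908 had 158 and 148 (0.23 ± 0.16, adjusted p = 0.19), with -0.08 after scaling to an equal sum and -0.57 after scaling to the 75th percentile. ENSBTAG00000008683 had 854 and 604 (0.33 ± 0.34), with -0.48 after the latter scaling. A p over the limit does not show that the levels were alike.

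Libraries of COCs 190 and 191 carried markers of the other compartment. The outerCC library of COC 191 held GDF9 and BMP15, growth factors of the oocyte, at 186 and 105 FPKM. That of COC 190 held them at 5.02 and 30.2 FPKM, against at most 1.18 and 0.447 in the other 14. The innerCC library of COC 190 held them at 12.5 and 30.2 FPKM, against at most 10.1 and 6.44 in the 14. The oocyte library of COC 191 held INHA and INHBA, inhibin subunits of granulosa and cumulus cells, at 109 and 51.4 FPKM. The other oocyte libraries held at most 18.0 and 5.01. Summed over the 3 cumulus markers matched of 12, oocyte libraries held 0 to 162 FPKM with a median of 0.572, and over the 7 oocyte markers matched of 12 they held 831 to 2037. Some members had an extreme value in these libraries. ENSBTAG00000012184 was at 1422 FPKM in the outerCCs of COC 191, at 194 in those of COC 190 and at most at 163 in the others. In innerCCs it was highest in COC 190, at 424 FPKM, against at most 165 in the 14. ACTB was at 351 in the oocyte of COC 191 and at 90.4 to 253 in the others. Without COC 191 the test again gave 72 members lower and 12 higher (34.1% and 42.8% of all genes). The difference was then 6.10 for ENSBTAG00000012184 and -3.64 for ACTB, and 26 and 6 members did not overlap (9.76% and 17.3% of all genes). Without COCs 190 and 191 the test gave 71 lower and 12 higher (34.2% and 42.4%), with 6.26 ± 0.26 for ENSBTAG00000012184. It gave 86 members lower in innerCCs than in outerCCs (79.2%). The part of these markers in single values was not tested.

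InnerCCs differed from the other types in ways that followed the library. Over all 16 COCs, 86 members were lower in innerCCs than in outerCCs (77.4% of all genes), 0 were higher (0.0%) and the 12 of the run and 1 other, HSPD1 (-1.29 ± 0.58, adjusted p = 0.043), did not pass in limma. At an unadjusted p under 0.05, 2 members were higher, both in the run (0.0322% of all genes). The median difference was -2.68 for members and -1.42 for all genes. The innerCC libraries mostly decided which genes were members. Member values set against those of all genes, here and below for innerCCs, are therefore given as a description only. In COCs 185 to 192, the COCs whose innerCC libraries were fuller, 1 member was lower (1.53% of all genes) and 0 higher, against 61 and 2 at an unadjusted p under 0.05 (48.4% and 0.0724% of all genes). The one was ENSBTAG00000026327, at -1.17 ± 0.23 (adjusted p = 0.00997). With libraries of these COCs scaled to an equal FPKM sum its difference was -0.90 (adjusted p = 0.13), and 0 members passed in limma, against 15 lower and 12 higher at an unadjusted p under 0.05 (25.8% and 0.249% of all genes). In these COCs 2 members, ENSBTAG00000009757 and ENSBTAG00000005620, lay below all outerCC values without overlap (1.34% of all genes). The member median there was -0.76 and that of all genes -0.71. In COCs 176 to 184 the count was 85 lower (80.4%) with a median of -4.58. With the library's gene number as a covariate, 0 members passed in either direction. At an unadjusted p under 0.05 in limma this fit gave 0 lower and 5 higher, all 5 in the run (14.9% and 0.249% of all genes). The gene number came from the same FPKM and was 648 to 10295 in innerCCs and 9054 to 11851 in outerCCs. This fit therefore cannot part gene number from sample type, and the cause was not tested.

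The named members show the gap between the sets of COCs in innerCC values. ACTB had a lowest, median and highest FPKM of 6.87, 20.9 and 280 in innerCCs of COCs 176 to 184 and of 459, 1232 and 1730 in those of COCs 185 to 192, with no overlap. RPS27A had 1.56, 81.6 and 209 against 400, 1146 and 1723, also with no overlap. EIF4A1 had 1.39, 3.97 and 82.4 against 79.2, 147 and 349, which overlapped narrowly. In COCs 185 to 192 the innerCC minus outerCC differences of ACTB (-1.10 ± 0.28, adjusted p = 0.016), RPS27A (-0.85 ± 0.27, adjusted p = 0.031) and HSP90AA1 (-0.26 ± 0.29, adjusted p = 0.47) did not pass.

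The run departed from the other members between cumulus layers. Its innerCC minus outerCC differences were 0.40 to 1.11 and did not pass in any of the 12, whereas those of the other 87 were -3.55 to -1.29. With libraries scaled to an equal FPKM sum, 12 members were higher in innerCCs (0.121% of all genes) and 80 lower (70.0%), and the 12 were those of the run, at 1.41 to 2.13. In COCs 185 to 192 with that scaling 0 of the 12 passed in limma, with a median of 1.23, although all 12 were higher at an unadjusted p under 0.05. Scaling to the 75th percentile gave 12 higher (0.121%), again the run, and 64 lower (61.7%). With the COC as a block, 3 of them were higher (0.0322% of all genes), ENSBTAG00000043550 (1.11), ENSBTAG00000043577 (1.07) and ENSBTAG00000043556 (1.01). Per COC, the innerCCs had the higher FPKM in 10 to 15 of 16 COCs for members of the run and in 0 to 5 of 16 for the others.

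Between oocytes and innerCCs, 30 members were higher in oocytes (63.2% of all genes) and 13 lower (4.53%), with a median of 0.94 for members and 1.47 for all genes. The 13 were the 12 of the run and ENSBTAG00000000894 (-2.59 ± 0.67, adjusted p = 0.00092). In COCs 185 to 192 alone the balance was the other way, with 19 higher (48.8%) and 50 lower (14.1%), 38 of them outside the run, and a median of -0.86 for members. There, ACTB was lower in oocytes with a log2 difference of -2.53 ± 0.28, as were CALR with -2.35 ± 0.23 and EEF1G with -2.02 ± 0.28. EIF4A1 (1.85 ± 0.33), CALM (1.37 ± 0.31) and TUBA1B (0.84 ± 0.27) were higher. In COCs 176 to 184, 56 members were higher (73.9%) and 9 lower (0.169%), the 9 all in the run. Over all COCs, scaling to an equal sum gave 20 higher (56.0%) and 24 lower (6.26%), and scaling to the 75th percentile gave 13 higher (45.3%) and 40 lower (8.42%). This comparison shares its oocytes with that against outerCCs and is no separate support for it. Members had to pass the threshold in every innerCC library, and these libraries mostly decided which genes were members. A surplus of members lower in oocytes than in innerCCs, against all genes, is therefore in part built into the choice. These shares are given as a description only.

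The spread between COCs was widest in innerCCs. The SD of log2(FPKM + 1) had a member median of 0.602 in oocytes, where the choice of members capped it, 0.677 in outerCCs, 2.63 in innerCCs and 0.674 in innerCCs of COCs 185 to 192. It was larger in outerCCs than in oocytes for 66 members (66.7%), and for 65.2% of the 4885 genes over 0.5 in all oocytes and outerCCs, but the limit on the oocyte SD acted on the members alone and nothing is read from their share. In outerCCs the members with the smallest SD were ENSBTAG00000020908, ENSBTAG00000002060, ENSBTAG00000027772, HSP90AB1 and ENSBTAG00000020139, and those with the largest were ENSBTAG00000012184, ENSBTAG00000008683, ENSBTAG00000043571, ENSBTAG00000005414 and ENSBTAG00000043563. ENSBTAG00000012184 and ENSBTAG00000005414 are among the 3 furthest to the oocyte side, and the former had its highest outerCC value in COC 191.

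The members belong to wider groups, of which the genes with a symbol could be counted. These counts stand beside 43.4% of all genes tested that were higher in oocytes than in outerCCs and 34.3% that were lower. Of 21 translation factors 3 were members, and 10 of the 21 were higher in oocytes and 8 lower, shares near those of all genes. Of 13 chaperones and folding enzymes 6 were members, and 10 of the 13 were lower, while HSPA8, HSP90AA1 and HSPA1A did not pass. PDIA3, a disulfide isomerase working with CALR, was over the threshold in 47 libraries and was lower, at -3.27 ± 0.25. Of 19 nuclear genes of oxidative phosphorylation 1 was a member, with 7 lower and 5 higher, the former share near that of all genes. Of 10 genes of RNA binding and splicing 1 was a member, with 6 lower and 3 higher, and of 7 cytoskeletal genes 2, with 3 lower and 2 higher. Of 4 glycolytic genes 0 were members and 3 were lower, and of 6 histone and chromatin genes 0, with 4 lower and 2 higher. CAT, the single redox gene matched, was no member and did not pass.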

How the data were processed

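PolyA+ RNA of the oocyte, innerCCs and outerCCs of 16 COCs was amplified by SMART-seq2 and sequenced. The authors aligned reads to UMD3.1 with STAR 2.5.2, filtered for single matches and, with Picard 2.5, for duplicates. Cufflinks 2.2.1 then gave FPKM per Ensembl gene, and these FPKM are what the authors deposited. Read counts made by the authors with HTSeq 0.6.1 were not analysed here. The unfiltered FPKM table was analysed and the filtered one was not used.

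The members, gene lists and comparisons were chosen with earlier results of these data known. Genes over 0.5 in 8 or more of the 16 libraries of any sample type were tested on log2(FPKM + 1) with limma 3.58.1 (eBayes, Benjamini-Hochberg FDR under 0.01) in R 4.3.3, on the libraries of the 2 types compared. The script was tested on simulated data. Other values used Python 3.11.15, numpy 2.4.6, pandas 2.3.3 and matplotlib 3.10.9. The study's model has a collection batch, which is not given per COC in the sources used here, so no batch term was fitted and its part was not tested.

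Libraries with the same number come from 1 COC, and their deviations from the type means correlated at 0.0102 (oocyte and outerCC), 0.0480 (oocyte and innerCC) and 0.154 (innerCC and outerCC) on average. The COC was fitted as a block in an alternative. The p-values measure the spread between COCs. The tables give no counts. Depth per library is not given in the sources used here (the study states averages per sample type), so no counting interval was computed.

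Symbols came from annotation lists of the study, with 28 added through RefSeq protein accessions. Of the mitochondrially encoded genes listed, 0 were matched by symbol, as for theca and erythrocyte markers. This does not show that their transcripts were absent, since most genes had no symbol at hand. The leukocyte marker CD3E and the endothelial markers VWF and KDR had medians of 5.72, 3.49 and 8.70 FPKM in oocytes and under 1 in all cumulus libraries. Named genes are the 12 members of highest median, the 6 of largest oocyte to outerCC difference in each direction past the FDR, those past it between cumulus layers in COCs 185 to 192, and the 5 of smallest and of largest outerCC SD, and the 3 genes on each side of both limits. Members with a symbol were added, of which 1 is not reported here, nor are some gene lists. Other members singled out were chosen after their values were seen. Alternatives changed the threshold, the SD limit, the pseudocount, the scaling, the COCs and the covariates.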

Additional observations from a re-analysis of the deposited data

How the results depend on the processing

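The number of members followed the threshold and the sparsest library. It was 156 at a threshold of 0.1, 25 at 5, and 162 with libraries scaled to an equal FPKM sum. Leaving out 1 library at a time gave 98 to 149 members, and the 149 came without the innerCCs of COC 179. The median share of the FPKM sum was 9.80%, 17.8% and 11.01% in oocytes, outerCCs and innerCCs without the 10 highest members, and 9.69%, 16.9% and 5.996% without the 12 of the identifier run, an alternative added after seeing the data, as were leaving out COC 191, leaving out COCs 190 and 191, and COCs 185 to 192 with an equal sum.

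Counts against innerCCs moved most. Set against all genes they are a description only, since the innerCC libraries mostly decided which genes were members. Members higher and lower in oocytes than in innerCCs numbered 13 and 40 with libraries scaled to the 75th percentile, 19 and 50 in COCs 185 to 192, 10 and 47 with the number of genes as a covariate (43.7% and 22.8% of all genes), and 15 and 56 in COCs 185 to 192 with an equal sum (41.3% and 16.8%). With an equal sum 24 were lower, and in COCs 176 to 184 56 were higher. Against outerCCs, 12 members were higher in innerCCs with either scaling, 1 was lower in COCs 185 to 192 (0 with an equal sum there, and 15 at an unadjusted p under 0.05 in limma), and 0 were lower with the covariate (0 at an unadjusted p under 0.05 in limma). The cause was not tested.

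With the COC as a replicate block, 3 members were higher in innerCCs than in outerCCs (0.0322% of all genes), and 14 higher and 73 lower in oocytes than in outerCCs (43.4% and 34.1%). Of 517 alternative values for named members in the comparison of oocytes with outerCCs, 502 kept direction and side of the FDR. The 7 that reversed (oocyte minus outerCC) were EIF4A1 (-0.22), HSP90AA1 (-0.33), CALM (-0.13), ENSBTAG00000008683 (-0.48) and ENSBTAG00000020908 (-0.57) with the 75th percentile, and ENSBTAG00000020908 with an equal sum, over all COCs (-0.083) and in COCs 185 to 192 (-0.021). Depth per library is unknown, and in the sparse innerCC libraries a low value cannot be told apart from a transcript that was missed.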
